A study of Rattus norvegicus with 12 samples.

Results

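Superficial CA1 of chronically epileptic rats was compared with superficial CA1 of control rats, using 6 of the 12 libraries of the series. Sublayer and condition were read from the titles of the samples, which gave 3 libraries from control and 3 from epileptic animals, each of a different adult male Wistar rat. The labels give an age of 45 to 50 days and a weight of 180 to 200 g without saying whether these hold at the first injection or at sampling. Epileptic rats had received kainate at 5 mg/kg every hour until status epilepticus, recorded at a minimum of 30 minutes. Diazepam at 4 mg/kg followed. These rats were sampled 6 to 8 weeks after status, in the chronic phase. The labels' protocols state that seizures were noted on handling, or by recording in part of the animals. Control rats had received vehicle, saline or DMSO, and otherwise the same treatments, though a diazepam dose is recorded for epileptic rats only. The superficial part of the pyramidal cell layer was cut by laser from 20 µm frozen sections, and RNA was sequenced from the collected cell bodies. The deep sublayer of the same 6 animals gave the other 6 libraries.

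CA1 pyramidal cells carry the main output of the hippocampus, and the layer they form is not uniform. Cells on the side of the stratum radiatum, the superficial ones, are known for their content of the calcium buffer calbindin and differ from deep cells in their inputs and firing. Kainate activates ionotropic glutamate receptors and triggers prolonged seizures, after which the hippocampus commonly loses neurons, gains reactive glia and develops spontaneous seizures.

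Genes are given by Ensembl identifier. The files hold no gene names, no symbol was at hand for any of the 32662 identifiers, and no function is assigned to any of them here. Markers of pyramidal cells, glia, interneurons, vessels and blood were therefore not analysed here, and the labelled tissue was not checked against them. At most 2 identifiers are named in each direction.

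Gene counts per library were 17648730 to 19550582 in control and 20623196 to 25893962 in epileptic animals. The libraries of epileptic animals 2 and 3 stood apart from the other 4. Of all alignments tallied, 25.3% and 25.6% were counted to no annotated feature in these, against 37.7% in epileptic animal 1 and 35.8 to 42.2% in controls. This tally is called the percentage outside exons here, although the use of strand in the counting is not given. Alignments to several places made up 42.3% and 42.5% in animals 2 and 3, 30.6% in animal 1 and at most 34.8% in controls. The 100 most abundant identifiers took 37.7% and 38.8% of the gene counts in animals 2 and 3, 29.1% in animal 1 and 26.9 to 28.2% in controls. On the first principal component, with 62.7% of the variance, controls lay between −33.6 and −19.5, epileptic animal 1 at −13.6, animal 2 at 25.4 and animal 3 at 66.9. The part of these library measures in the results that follow was not tested. A fit with the percentage outside exons as covariate is given beside some of them. That percentage averaged 39.6% in control and 29.5% in epileptic libraries. With so few libraries the fit therefore cannot tell this measure and the condition apart.

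Of 14321 identifiers tested, 2 passed edgeR's quasi-likelihood test at an adjusted p below 0.05 (0.0140%), 1 higher and 1 lower in epileptic rats. At an unadjusted p below 0.05 there were 2710 (18.9%). The adjusted p rose slowly over the next ones: 25 identifiers lay below 0.06, 9 of them higher, and 154 lay below 0.1, 68 of them higher. All 3 epileptic libraries lay above all 3 controls for 1597 identifiers and below them for 1863, together 24.2% of those tested. In RNA from collected tissue, fewer cells of a type and less RNA per cell cannot be told apart.

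ENSRNOG00000018159 was the identifier that rose. Its CPM was 1.32, 1.30 and 1.63 in control animals 1, 2 and 3. CPM is the count per 1000000 counts of the tested identifiers, with each library total multiplied by its TMM scaling factor. In epileptic animals 1, 2 and 3 the CPM of ENSRNOG00000018159 was 9.57, 14.9 and 8.41. The groups were far apart and all 3 epileptic animals stood at a similar height, with the largest value 1.77 times the smallest. The log2 fold change was 2.95 (SE 0.27, edgeR adjusted p = 0.0265), and the separate animals lay 2.40, 3.01 and 2.22 above the control mean on the log2 scale.

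ENSRNOG00000054809 was the identifier that fell. Control animals had 16.0, 17.3 and 16.4 CPM, a coefficient of variation of 4.00%. Epileptic animals had 1.37, 2.59 and 1.72 CPM, a coefficient of variation of 33.2%. Both groups were tight relative to the gap between them, and epileptic animal 1, the nearest to controls on the first principal component, had the lowest value. The log2 fold change was −3.12 (SE 0.23, edgeR adjusted p = 0.00980). With each control library left out in turn neither call held, at an adjusted p of 0.188 to 0.354, while the log2 fold changes were 2.89 to 3.06 and −3.15 to −3.09. Without epileptic animal 2 the call of ENSRNOG00000018159 was lost (adjusted p = 0.0667). It was also lost when the percentage outside exons was a covariate (log2 fold change 2.75, adjusted p = 0.0894), while ENSRNOG00000054809 passed in that fit (−3.59, adjusted p = 0.0203).

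**Figure D1:**
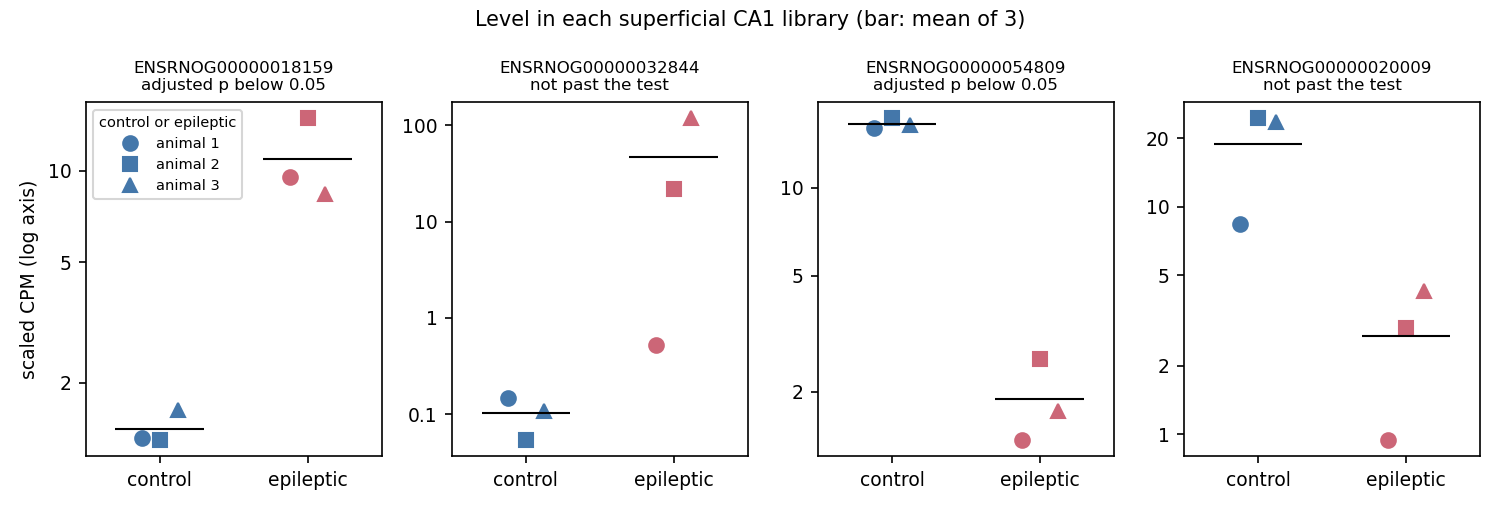
Scaled CPM on log axes for the 4 named identifiers in each of the 3 control and 3 epileptic superficial libraries; symbols mark animals 1, 2 and 3 of each condition, which are different rats, and bars mark means. The groups do not overlap in any panel, but the epileptic points of ENSRNOG00000032844 run from 0.519 to 117 CPM, while those of ENSRNOG00000018159 run from 8.41 to 14.9.

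Among abundant identifiers without overlap, the largest higher change and the second largest lower change did not pass edgeR's test. Abundant here means a mean log2 CPM of at least 3, about 8 CPM, which 9541 identifiers reached. ENSRNOG00000032844 had the largest higher value, with 3, 1 and 2 raw counts in the control libraries. Epileptic animals 1, 2 and 3 had 11, 521 and 2384 raw counts. In CPM the epileptic values were 0.519, 21.7 and 117, so the highest animal had 226 times the level of the lowest. Controls had at most 0.146 CPM. The identifier thus counts as abundant only through epileptic animals 2 and 3, and its rank among abundant identifiers rests on these 2 animals. Against the 6 counts of the controls together, the depth-corrected ratio was 4.90 in epileptic animal 1 (95% exact interval 1.66 to 16.1), 185 in animal 2 (84.3 to 506) and 990 in animal 3 (454 to 2701), where the intervals cover counting error only. Its edgeR adjusted p was 0.199. The SD over epileptic animals was 3.48 on the log2 scale, against 0.11 over controls. DESeq2 called this identifier (adjusted p = 4.19e-05), as did edgeR without epileptic animal 1 (adjusted p = 0.0280). With the percentage outside exons as covariate its log2 fold change moved from 8.72 to 2.32 (edgeR adjusted p = 0.999), and without epileptic animal 3 it was 6.67 (edgeR adjusted p = 0.301).

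ENSRNOG00000020009 had the largest lower value among those edgeR did not call. Control animals had 8.38, 24.4 and 23.6 CPM and epileptic animals 0.943, 2.92 and 4.28 CPM. Here the spread was as wide among controls as among epileptic animals, with an SD of 0.85 and 0.89 on the log2 scale. The log2 fold change was −2.79 (SE 0.64, edgeR adjusted p = 0.145). DESeq2 called it (adjusted p = 0.00599). It also passed in edgeR when replicate numbers were blocked (adjusted p = 0.0109). A replicate number names different animals among control and epileptic rats, however, so this block is no true pairing. With the percentage outside exons as covariate the log2 fold change was −4.54 (edgeR adjusted p = 0.174).

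At fitted changes of at least 2-fold, higher levels came with a wider spread among epileptic animals than lower levels. Part of this contrast follows from the selection. In 3 animals, 1 very high value can raise the mean 2-fold and lift an identifier over the abundance cutoff. With the other 2 animals at the control level, 1 low value cannot lower the mean 2-fold. Among abundant identifiers, 185 had a fitted level at least 2-fold higher in epileptic rats (1.94%) and 21 at least 2-fold lower (0.220%). The median SD over the 3 epileptic animals was 1.07 on the log2 scale for the 185 and 0.53 for the 21, against 0.22 and 0.27 over the controls. The fitted changes had a median size of 1.42 and 1.28 on the same scale. Among the 185, only 11 reached 2-fold above the control mean in each of the 3 epileptic animals, 102 did so in 2 animals and 72 in 1. Among the 21, 6 did so in 3 animals, 13 in 2 and 2 in 1.

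**Figure D2:**
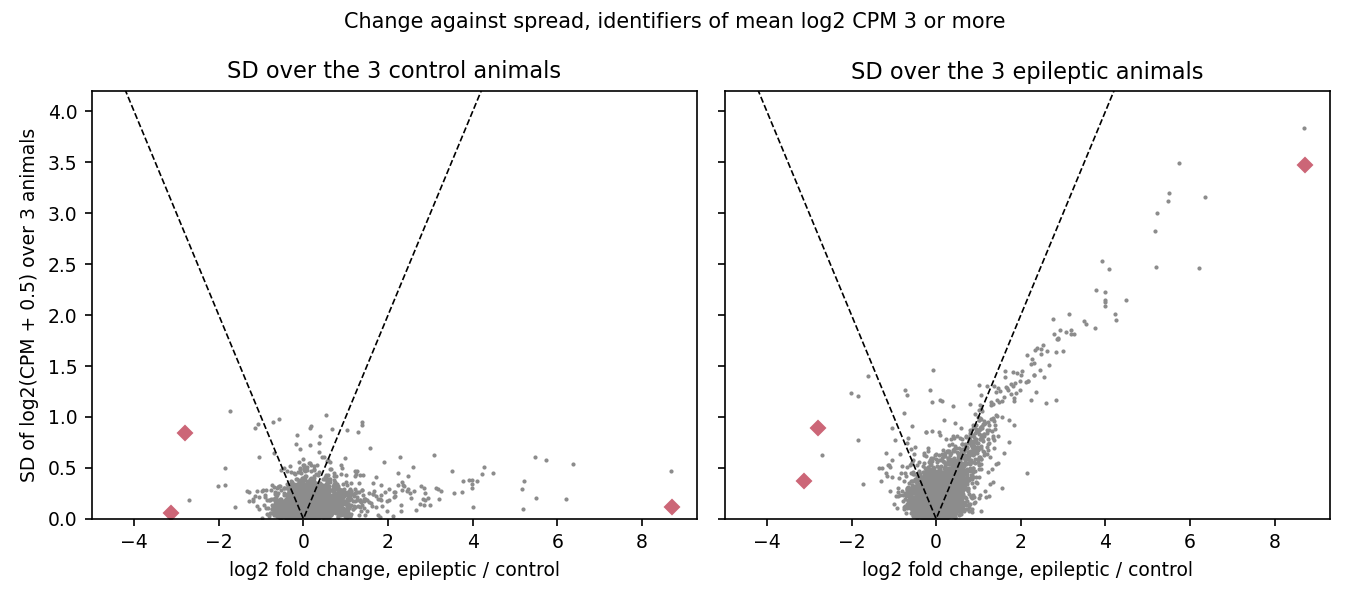
Each point is 1 of the 9541 abundant identifiers, placed by its log2 fold change (epileptic over control) and by the SD of log2(CPM + 0.5) over the 3 control animals (left) or the 3 epileptic animals (right); dashed lines mark an SD equal to the change and diamonds the 3 named identifiers in this range. Among identifiers at least 1.5-fold, 2-fold and 4-fold higher, the median SD over epileptic animals is 0.69, 1.07 and 1.82, reaching 3.48 at ENSRNOG00000032844, and the median SD over controls is 0.19, 0.22 and 0.29.

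The higher levels were carried mostly by epileptic animal 3. For the 185 identifiers, the median difference from the control mean was 0.33 on the log2 scale in animal 1, 1.16 in animal 2 and 2.07 in animal 3. Animal 3 was the farthest from controls in 162 of them and animal 1 the nearest in 167. For the 21 lower identifiers the order was the reverse: the medians were −1.66, −1.38 and −0.85 in animals 1, 2 and 3, and animal 1 was the farthest in 17. This reversal was limited to these 21. Over all tested identifiers, the 96 at least 2-fold lower had medians of −0.84, −0.92 and −0.86 in animals 1, 2 and 3. The 792 at least 2-fold higher kept their order, at 0.33, 1.00 and 1.86. These identifiers were chosen by the mean of the same animals, so the values describe them and test nothing. Without epileptic animal 3 the 185 became 64 and the 21 became 32, and without control animal 2 the 21 became 13. When the percentage outside exons was a covariate, the counts were 41 and 57.

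Each library was also set against the mean of 2 control libraries, so that controls and epileptic animals were measured the same way. A control library had 6 to 8 abundant identifiers at least 2-fold higher and 4 to 6 at least 2-fold lower than the other 2 controls. Epileptic animal 1 had 38 to 41 higher and 42 to 54 lower, depending on the pair of controls. Animal 2 had 134 to 153 higher and 24 to 33 lower. Animal 3 had 314 to 368 higher and 15 to 19 lower. All 3 epileptic libraries were thus outside the range of the controls in both directions, with animal 1 balanced between the directions and animals 2 and 3 mostly higher.

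**Figure D3:**
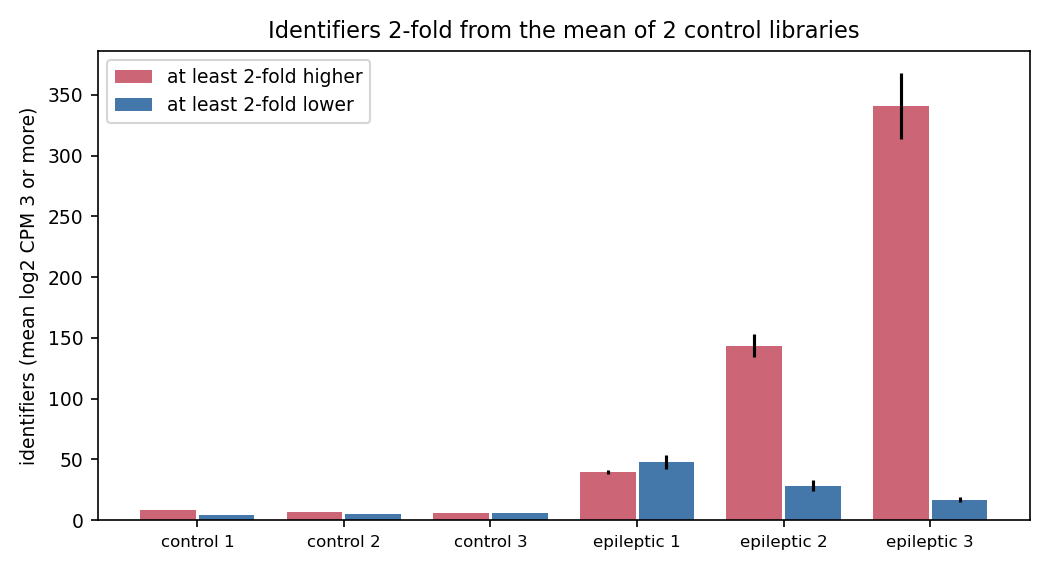
Number of abundant identifiers at least 2-fold higher (red) or lower (blue) in each superficial library than the mean of 2 control libraries; for epileptic libraries the bar is the midpoint, and the line the range, over the 3 possible pairs of controls. Higher identifiers run from 38 to 41 in epileptic animal 1 to 314 to 368 in animal 3, while lower ones run from 42 to 54 down to 15 to 19.

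Epileptic animals differed from each other about as much as from controls. The median absolute log2 difference over the abundant identifiers was 0.10 to 0.12 for the 3 pairs of control animals. For the 3 pairs of epileptic animals it was 0.15 to 0.22, and for the 9 pairs of a control with an epileptic animal 0.12 to 0.25. The largest of the epileptic pairs was animal 1 with animal 3, which had 380 abundant identifiers at least 2-fold apart, against 17 to 26 within control pairs. Identifiers with an SD above 1 on the log2 scale numbered 111 over the epileptic and 2 over the control animals. The highest value was that of animal 3 in 100 of the 111. The wider spread reached beyond these: over all 14321 identifiers the SD was larger in epileptic animals for 9975 (69.7%), with a median of 0.18 against 0.12 in controls.

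The direction of change depended on how abundant an identifier was. Between a mean log2 CPM of 0 and 3, all epileptic libraries lay above all controls for 16.5% of 3827 identifiers and below them for 7.24%. At a mean log2 CPM of 7 and above, they lay above for 5.26% of 1426 identifiers and below for 24.3%. The median log2 fold change moved from 0.17 to −0.09 between these bands. By animal, the median difference from the control mean in the lower band was 0.03, 0.13 and 0.22 in epileptic animals 1, 2 and 3, and in the upper band −0.02, −0.09 and −0.19. The size of the tilt followed the order in which the animals lie on the first principal component. That component is computed from the same values, so the shared order is a description and no separate support. Control libraries 1, 2 and 3, each against the other 2, had −0.06, −0.01 and 0.07 in the lower band. In the upper band they had 0.02, 0.01 and −0.04. Control 3 thus tilted the same way as the epileptic animals, with larger values than epileptic animal 1. The controls were also ordered as on the first principal component, at −33.6, −25.5 and −19.5. The control ranges contain the values of epileptic animal 1 but not those of epileptic animals 2 and 3.

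A scaling factor shifts all identifiers of a library alike, so other scalings can move the zero point but hardly the gap between the bands. The values under other scalings are therefore no test of the tilt. Library effects that vary with abundance were not tested. The medians were 0.17 to 0.19 in the lower and −0.09 to −0.07 in the upper band with RLE size factors, without the most abundant identifier or with counts thinned to 17648730 per library. When the percentage outside exons was a covariate, the medians came to 0.02 and −0.02, and without epileptic animal 3 they were 0.11 and −0.05.

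**Figure D4:**
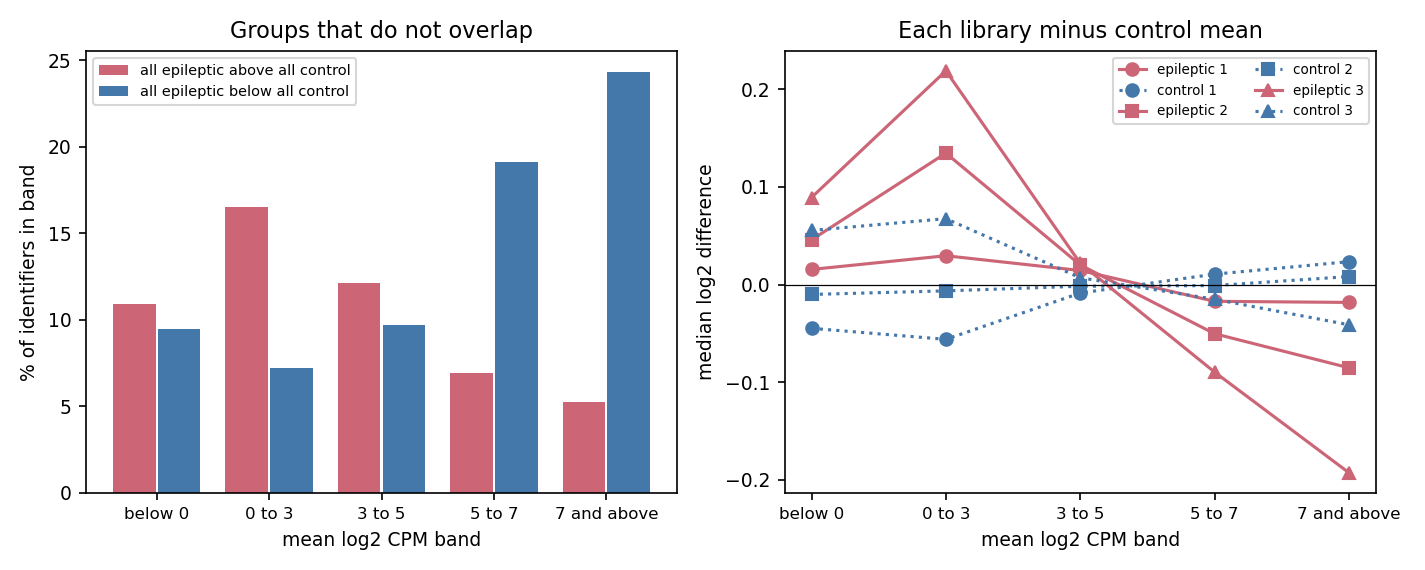
Left, percent of identifiers in each band of mean log2 CPM whose 3 epileptic libraries all lie above (red) or below (blue) the 3 controls; right, median log2 difference of each epileptic library from the mean of 3 controls (solid) and of each control from the other 2 (dotted). Separated identifiers are mainly higher between 0 and 3 (16.5% against 7.24%) and mainly lower at 7 and above (24.3% against 5.26%).

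The number of identifiers called varied with the test. DESeq2 called 885 (6.18%), 527 higher (3.68%) and 358 lower (2.50%), and limma-voom with sample quality weights called 1746 (12.2%), 758 higher and 988 lower. They shared 679 identifiers, all in the same direction, which is 76.7% of the first list and 38.9% of the second. Both identifiers called by edgeR were in each list. ENSRNOG00000054809 passed under all 9 alternatives that kept the 6 libraries and ENSRNOG00000018159 under 8 of them.

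Identifiers called higher and lower by DESeq2 differed in how evenly the animals contributed. The 527 higher ones had a median difference from the control mean of 0.46, 1.05 and 1.59 on the log2 scale in epileptic animals 1, 2 and 3, and an SD over these animals of 0.65. The 358 lower ones had −0.36, −0.48 and −0.48 and an SD of 0.13. Changes of at least 2-fold numbered 340 among the higher and 29 among the lower calls. All epileptic libraries lay beyond all controls for 417 of the 527 (79.1%) and for 356 of the 358 (99.4%). In the DESeq2 lists the lower changes were thus smaller and more even across animals than the higher ones, as a description of lists chosen on these libraries. The median size of the change was 1.34 for the higher and 0.43 for the lower calls. A small change passes the test only with a small spread, so part of the evenness follows from the calling. Abundant identifiers were 275 of the 527 and 337 of the 358. The 758 higher calls of limma-voom had medians of 0.42, 0.71 and 0.65 in animals 1, 2 and 3 and an SD of 0.29, and its 988 lower calls had an SD of 0.17. Animal 3 was the farthest from controls in 376 of the 527 higher DESeq2 calls and in 355 of the 758 of limma-voom, where animal 2 was the farthest in 296. For the DESeq2 lists, the median edgeR adjusted p was 0.179 for the higher and 0.123 for the lower list.

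**Figure D5:**
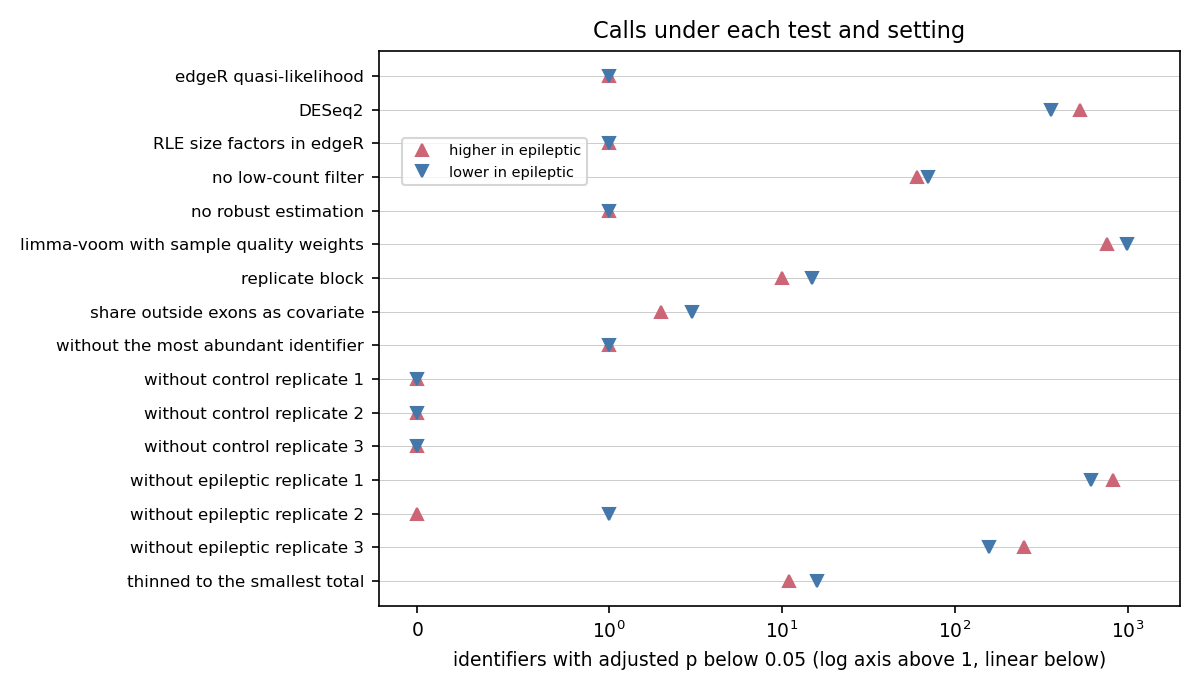
Identifiers with an adjusted p below 0.05 that were higher (red) or lower (blue) in epileptic superficial CA1, for edgeR's quasi-likelihood test and each alternative; the axis is logarithmic above 1 and linear below. Counts run from 0 without any 1 of the control animals to 827 higher without epileptic animal 1 and 988 lower with limma-voom and quality weights.

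Single animals set these counts as well. Without epileptic animal 1 edgeR called 1443 identifiers (9.96%) and without animal 3 it called 409 (2.84%). Without animal 2 it called 1 (0.00694%), and without control animal 1, 2 or 3 edgeR called 0 (0.00%), with 1374, 1713 and 1896 at an unadjusted p below 0.05. Where an arm keeps 2 libraries, they are assumed to vary like the rest.

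In the deep sublayer of the same animals, the 4 named identifiers had the same direction. ENSRNOG00000018159 had 1.19, 1.95 and 1.92 CPM in deep control libraries and 7.58, 10.4 and 5.30 CPM in the deep libraries of epileptic animals 1, 2 and 3. ENSRNOG00000054809 had 8.46, 7.59 and 7.57 CPM in control and 0.561, 1.70 and 1.43 CPM in epileptic animals. The groups did not overlap in the deep sublayer for either of them, where the fits gave log2 fold changes of 2.20 (SE 0.30, edgeR adjusted p = 0.0625) and −2.67 (SE 0.33, edgeR adjusted p = 0.0519).

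ENSRNOG00000032844 repeated its unevenness in deep libraries, at 0.842, 11.3 and 40.2 CPM in epileptic animals 1, 2 and 3 and at most 0.461 in controls. ENSRNOG00000020009 had 7.37, 18.2 and 20.3 CPM in deep control and 1.12, 3.17 and 6.15 CPM in deep epileptic libraries. Deep and superficial libraries come from the same brains, so the deep values are no independent replicate.

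Whether the effect of epilepsy itself differed between the sublayers was tested by an interaction term with a term for each animal. No identifier of 14791 passed (0.00%), with 976 (6.60%) at an unadjusted p below 0.05. DESeq2 called 2 (0.0135%), limma-voom with quality weights 106 (0.717%) and edgeR with no low-count filter 178 (0.751%). For the named identifiers the log2 fold change in superficial minus that in deep CA1 was 0.73 (SE 0.25) for ENSRNOG00000018159 and −0.45 (SE 0.25) for ENSRNOG00000054809. It was 2.74 (SE 0.94) for ENSRNOG00000032844 and −0.64 (SE 0.18) for ENSRNOG00000020009. Their edgeR adjusted p was 0.596, 0.830, 0.656 and 0.400 in that order, so that none of these changes is shown to be particular to superficial CA1.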

How the data were processed

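RNA was sequenced from laser-captured deep and superficial CA1 of 3 control and 3 epileptic rats, and the 6 superficial libraries were compared. The values are raw counts of reads per Ensembl gene identifier, deposited by the authors in a table for each library. HTSeq 0.6.1 and SAMtools 0.1.19, STAR 2.5.0c, FastQC 0.11.3 and the build Rnor_6.0 are listed in the submitters' processing notes. Settings and use of strand: not given in the sources used here. Reads of overlapping, antisense or near-identical genes may not be told apart. Library sizes and tests exclude the 5 summary tallies. Between 28.6 and 32.2% of the tallied alignments were assigned to a gene.

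In R 4.3.3, identifiers were kept by filterByExpr of edgeR 4.0.16 (minimum count 10, minimum total 15), scaled by TMM and tested with the robust quasi-likelihood test on the 6 superficial libraries without a block, with Benjamini-Hochberg adjustment. The SE is the absolute log2 fold change divided by the square root of F, an approximation. SDs and differences between libraries use log2(CPM + 0.5). The interaction was fitted on all 12 libraries. Alternatives used DESeq2 1.42.0, limma 3.58.1, other scalings and filters, a covariate and omitted animals, and counts thinned to 17648730, chosen after seeing the data. In simulated counts with the spread of the 6 libraries, edgeR recovered 91.0% of 2-fold changes, and 8.79% of its calls were false. For the interaction 6.70% of calls were false. The simulation gave control and epileptic libraries the same spread, unlike these data. It therefore gives neither the rate of recovery nor the rate of false calls here. No 2 libraries of a group were duplicates (chi-square per identifier 8.69 to 115). Replicates are separate animals.

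Named identifiers were those called and, up to 2 in each direction, the largest changes among abundant identifiers without overlap. The rule for larger numbers, the 41 gene lists and the alternative without mitochondrially encoded genes need symbols, of which 0 could be paired, and were not used here; the single most abundant identifier was left out in that alternative. The comparison, lists and rules were chosen with earlier results of these data known.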

Additional observations from a re-analysis of the deposited data

How the results depend on the processing

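The 2 calls between epileptic and control superficial CA1 were also 2 with RLE size factors, with no robust estimation and without the most abundant identifier. The count was 885 with DESeq2, 130 with no low-count filter, 1746 with limma-voom and quality weights, 25 with the replicate number as a block, 5 with the percentage outside exons as covariate and 27 with thinned counts. Leaving out 1 animal gave 0 to 1443. The balance moved with the test: 527 of 885 calls were higher in epileptic rats with DESeq2, 758 of 1746 with limma-voom, 60 of 130 with no filter, 10 of 25 with the block and 11 of 27 after thinning. The interaction count of 0 was 2 with DESeq2, 178 with no filter and 106 with limma-voom, and 0 to 84 with 1 animal left out (84 without epileptic animal 1, 12 without epileptic animal 3). The cause of these differences was not tested. The replicate numbers name different animals of the 2 conditions. Deviations of same-numbered control and epileptic libraries correlated at 0.308, −0.0404 and 0.230 over 9541 identifiers, and not every library correlated best with its own number, so the numbers were not taken as pairs. No log2 fold change of a named identifier changed sign under any alternative, but with the covariate that of ENSRNOG00000032844 went from 8.72 to 2.32 and that of ENSRNOG00000020009 from −2.79 to −4.54. ENSRNOG00000032844 did not pass the low-count filter after thinning and has no value there. Depth limits low identifiers: control levels of ENSRNOG00000032844 rest on 1 to 3 counts.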

Other observations

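Few identifiers were seen in 1 condition only, and those that reached 10 counts did so mostly in 1 animal. With counts as deposited, 97 identifiers had at least 1 count in every epileptic and none in any control superficial library, and 33 had the reverse. Epileptic libraries are deeper, and after thinning all 6 libraries to 17648730 counts these numbers were 65 and 51. No identifier absent from 1 condition reached 10 counts in every library of the other. After thinning, 18 identifiers absent from all controls reached 10 counts in at least 1 epileptic library, 13 of them in a single animal, while 0 did so in the reverse direction. By animal they numbered 1, 7 and 15 in epileptic animals 1, 2 and 3.

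Over all identifiers tested, the 3 epileptic animals shared a direction about as often in each sense, but among abundant ones more often downward. All 3 lay above the control mean for 3515 of the 14321 identifiers tested (24.5%) and all 3 below it for 3575 (25.0%). Among the 9541 abundant identifiers the numbers were 1942 (20.4%) and 2760 (28.9%).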
